A study of Mus musculus with 24 samples.

Results

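A set of 37 genes of glucose uptake, glycolysis, lactate handling and the pentose phosphate pathway was described in supporting cells sorted from fetal mouse gonads. The genes were chosen by name for their place in the pathway, with earlier results of these data known. All 37 were present among the 32040 genes of the deposited tables, and 36 passed the filter on low counts. The exception was Fbp2, the muscle form of fructose-1,6-bisphosphatase, which had between 0 and 13 counts in each library and was not tested.

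Glycolysis splits glucose into pyruvate in the cytosol. Hexokinases trap glucose inside the cell, phosphofructokinase commits it to the pathway, and the lower steps from glyceraldehyde phosphate to pyruvate yield ATP and NADH. Lactate dehydrogenase interconverts pyruvate and lactate, and monocarboxylate transporters carry lactate across the membrane, whereas pyruvate dehydrogenase sends pyruvate into the mitochondrion unless its kinases switch it off. Sertoli cells of the postnatal testis are known for taking up glucose and exporting lactate, which germ cells use as fuel.

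The XX libraries were pre-granulosa cells, the supporting cells of the ovary, sorted from fetal gonads of the Tg(Enh8-mCherry) mouse line. The XY libraries were Sertoli cells, the supporting cells of the testis, sorted from fetal gonads of the SOX9-IRES-GFP line. Each sex was collected on 4 embryonic days, from E11.5 to E15.5 with E12.5 and E13.5 between, with 3 libraries in each of the 8 groups, and no other allele or agent is named in the labels. The line and the fluorophore used for sorting differed along with sex, so their parts in an XX minus XY difference cannot be told apart. The labels do not say which animals or litters gave a library, so p-values measure the spread between these libraries, which may be partly technical. Levels between genes were compared only in the authors' TPM values, a library-scaled level that is divided by transcript length. Differences are log2 XX minus XY from edgeR's quasi-likelihood test on counts, with the standard error (SE) and an adjusted p (Benjamini-Hochberg, all 16190 genes tested). A difference was called at an adjusted p under 0.05, and a positive difference means a higher level in XX.

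Total counts per library ran from 11275251 to 37256881. In the XY libraries the summed TPM of 9 Sertoli markers was between 1085 and 10852, against between 98.3 and 205 in XX. The summed TPM of 8 pre-granulosa markers was between 293 and 1217 in XX, against between 3.4 and 85.7 in XY. The 3 XX E11.5 libraries also held RNA of other cells. Their summed TPM of 8 erythroid markers was 28645, 7531 and 68608 in replicates 1 to 3, against between 393 and 3431 in later XX libraries and at most 236 in XY. Their summed TPM of 7 immune markers was 223, 121 and 331, against between 31.6 and 58.2 later in XX and at most 1.4 in XY, where at E12.5 the markers Cd53, Ctss, C1qa, C1qb and Aif1 were listed at 0. Stromal markers (6 genes) summed to between 133 and 846 in XX E11.5 and between 290 and 548 in XY E11.5, where replicate 3 was highest, and to at most 195 in later XX and 51.4 in later XY libraries. In bulk RNA, fewer cells of a type and less RNA per cell cannot be told apart. The part of these other cells in the E11.5 results below was not tested. The library XX E13.5 replicate 1, is E13.5 in its title and description but E12.5 in another label field and was kept at E13.5.

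The 37 genes made up a smaller share of the RNA at E15.5 than at E11.5 in both sexes. They held 1.43%, 1.13% and 1.14% of all TPM in the 3 XX libraries at E11.5 and 0.760%, 0.794% and 0.687% at E15.5. At E12.5 the XX share, at 1.32%, 1.25% and 1.14%, was still within the range of E11.5. In XY they held 2.15%, 2.20% and 1.61% at E11.5 and 0.838%, 0.849% and 0.878% at E15.5. Much of this was Ldhb, the heart-type subunit of lactate dehydrogenase, the member with the highest TPM in every group. Without Ldhb, the summed TPM of the other 36 genes was between 6044 and 7102 in XX and between 7035 and 8519 in XY at E11.5. It was highest in XY E12.5, at 9961, 9955 and 9798, and lowest in XX E15.5, at 4963, 5393 and 4412. At the 3 later stages every XY library lay above every XX library in this sum.

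**Figure D1:**
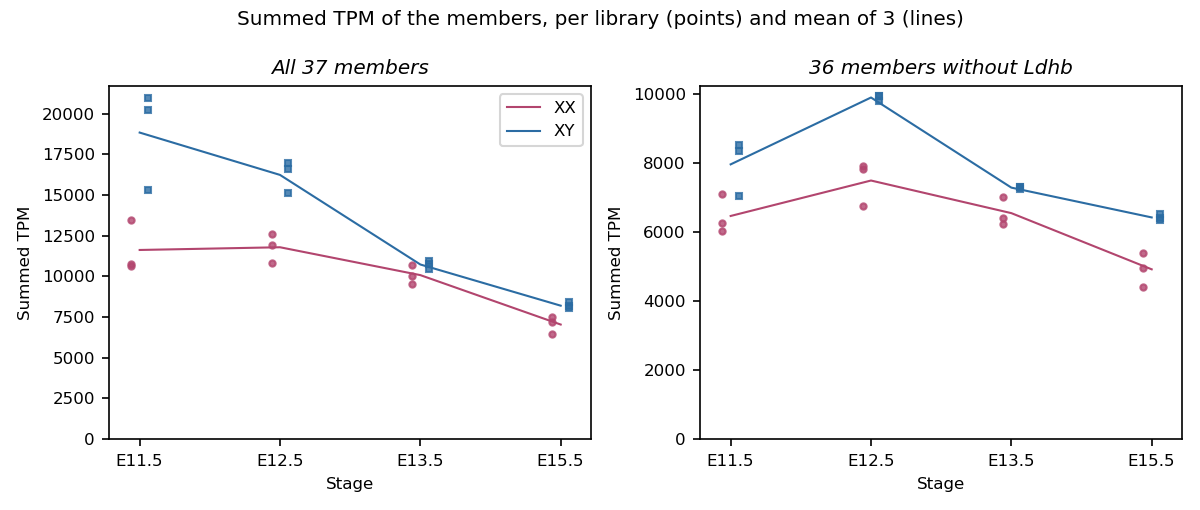
Summed TPM of all 37 genes (left) and of the 36 genes other than Ldhb (right) in each library, with stage on the x axis, points for libraries and lines for the mean of 3 libraries. In the right panel the 3 XY E12.5 libraries, between 9798 and 9961, are the highest, and the 3 XX E15.5 libraries, between 4412 and 5393, the lowest.

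Members were called in both directions at every stage, with more called higher in XY than in XX at E11.5, E12.5 and E15.5. At E11.5, 10 members were called higher in XX and 12 higher in XY, where 21.4% and 20.6% of all genes tested were called in those directions. On the log2(TPM + 1) scale (limma-trend) the split at this stage was 8 and 15, where the median difference of all genes was -0.05. The shares of all genes called on that scale are not given here, so the split shows no lean particular to the members. At E12.5, 10 members were higher in XX and 20 in XY, against 30.5% and 31.5% of all genes. With limma-trend and no filter except a TPM above 0, that split was 10 and 12, and 14.2% of all genes were called higher in XY. At E13.5 the counts were 14 for XX and 13 for XY, against 32.8% and 33.3% of all genes. At E15.5 they were 10 for XX and 17 for XY, against 34.9% and 34.4% of all genes. As shares of the 36 members tested, those called higher in XY came to 33.3%, 55.6%, 36.1% and 47.2% over the 4 stages, and those higher in XX to 27.8%, 27.8%, 38.9% and 27.8%. The median log2 difference of the members in stage order was -0.18, -0.48, -0.06 and -0.23, beside medians of 0.02, -0.01, 0.01 and 0.05 over all genes tested. Without XX E11.5 replicate 2, the 10 members higher in XX at E11.5 became 6, and a fit of the E11.5 libraries alone called 12 members in place of 22, where 17.7% of all genes were called in place of 42.0%.

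A total of 7 members kept 1 direction of difference at all 4 stages. Aldoc, Eno3 and Pdk2 were called higher in XX at every stage, and Pfkfb3, Gapdh, Pdk3 and G6pdx higher in XY. These are 8.33% and 11.1% of the members tested, beside 8.49% and 9.39% of all genes. Of these 7, Pdk2 and G6pdx kept every call under all alternatives run, while each of the other 5 lost a call at 1 or more stages in at least 1 of them. Slc2a3, Hk1, Pgk1, Slc16a1, Slc16a3 and Pdha1 had called differences of opposite sign at 2 stages, which is 16.7% of members beside 13.9% of all genes. Slc2a3, Hk1, Slc16a3 and Pdha1 kept all of these calls under every alternative run, and Pgk1 and Slc16a1 did not, as given with their values below. No alternative set aside the erythroid and immune marker RNA of the XX E11.5 libraries, whose part in these calls was not tested. The test of whether the XX minus XY difference changed with stage called 29 of the 36 members, against 70.1% of all genes.

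**Figure D2:**
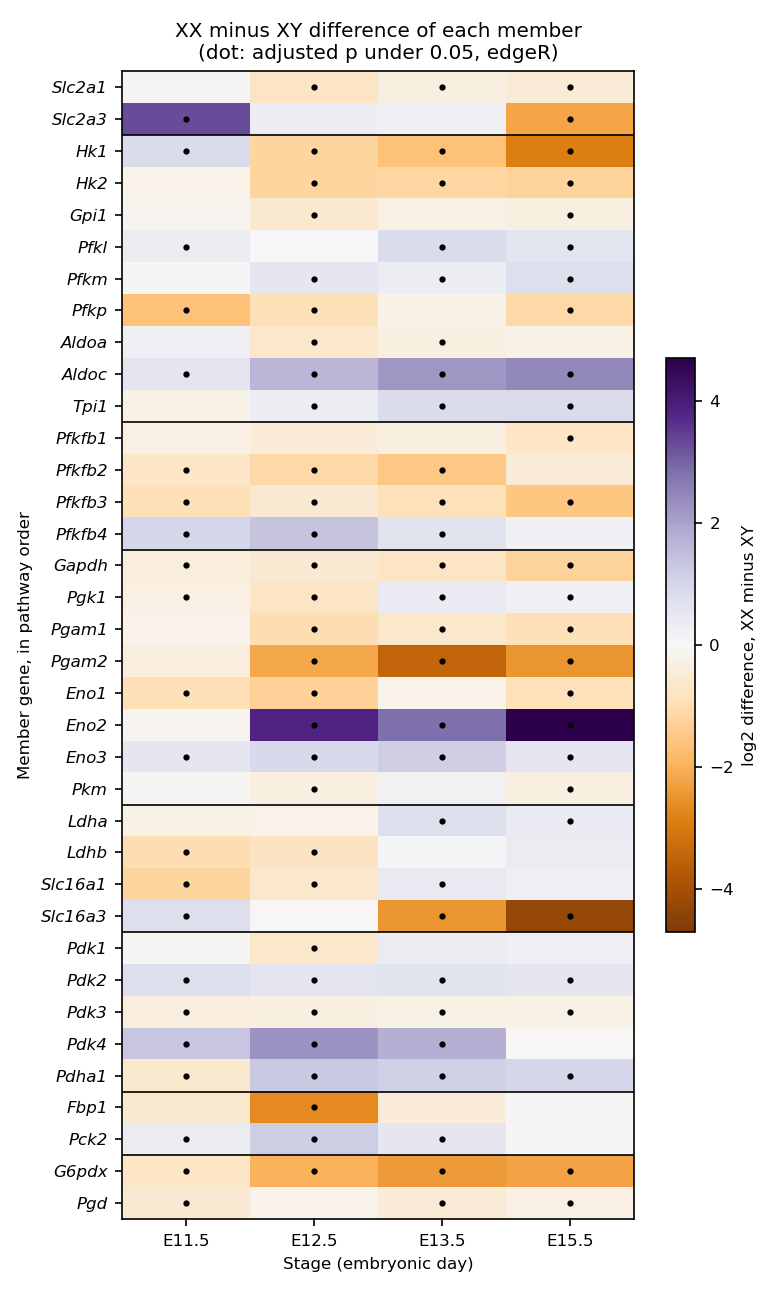
Log2 difference, XX minus XY, of the 36 members tested (rows, in pathway order, lines between roles) at each stage (columns), with violet for higher in XX and orange for higher in XY, and a dot where the adjusted p in edgeR was under 0.05. Slc16a3 runs from 0.77 at E11.5 to -4.29 at E15.5, and G6pdx is negative at all 4 stages; the saturated Eno2 row rests on TPM values of at most 1.94.

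Some calls named below ended under another processing. On the log2(TPM + 1) scale 13 of the called sex differences of members were lost: Eno3 and Pck2 (E11.5), Pdk1, Pdk3, Pfkfb3, Pkm and Slc16a1 (E12.5), Eno2, Pfkfb3, Pfkm and Slc16a1 (E13.5), and Gpi1 and Pgk1 (E15.5). With all genes above 0 on that scale, 19 were lost, the others being Pfkl and Pfkfb3 at E11.5, Gapdh, Pfkfb2 and Pfkp at E12.5 and Pfkfb4 at E13.5. In fits of only the libraries compared, 10 were lost, all at E11.5 (Aldoc, Eno3, Gapdh, Pck2, Pdk3, Pdk4, Pfkfb2, Pfkfb3, Pfkl and Pgk1). DESeq2 lost 2 (Pfkfb3 at E12.5 and Pdk3 at E13.5). With at least 10 counts in every library 6 were lost (Pfkfb3 and Pkm at E12.5, Slc2a1 and Pdk3 at E13.5, Gpi1 and Pdk3 at E15.5), and with no filter beyond 1 count 4 were lost (Pfkl at E11.5, Pfkfb3 at E12.5, Slc16a1 at E13.5 and Pgk1 at E15.5).

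The promoters of 4 members are shown because they stand for different roles and for both directions at E15.5, when Slc16a3 and G6pdx were higher in XY and Aldoc and Pdha1 higher in XX. They were picked after their values were seen, and Hk1 and Pgam2 differed more widely than G6pdx. Each sequence runs from 250 bases before to 50 after a RefSeq transcript start on GRCm38.p6, read 5′ to 3′ on the strand of the gene, and capitals mark the hypoxia response core (ACGTG or GCGTG on either strand).
Slc16a3 (chr11:120948817-120949116, plus strand): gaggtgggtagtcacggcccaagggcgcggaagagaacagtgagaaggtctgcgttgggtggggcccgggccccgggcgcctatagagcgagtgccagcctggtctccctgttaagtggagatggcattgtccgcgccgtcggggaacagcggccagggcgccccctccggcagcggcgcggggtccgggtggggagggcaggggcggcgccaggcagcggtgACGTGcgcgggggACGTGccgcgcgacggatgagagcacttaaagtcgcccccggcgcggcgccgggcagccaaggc
G6pdx (chrX:74428831-74429130, minus strand): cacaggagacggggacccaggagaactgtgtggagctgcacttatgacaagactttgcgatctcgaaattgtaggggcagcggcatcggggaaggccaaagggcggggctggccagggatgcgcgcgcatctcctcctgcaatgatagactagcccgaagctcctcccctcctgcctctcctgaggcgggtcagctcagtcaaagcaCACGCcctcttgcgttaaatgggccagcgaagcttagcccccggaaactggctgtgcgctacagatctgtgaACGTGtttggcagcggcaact
Aldoc (chr11:78322823-78323122, plus strand): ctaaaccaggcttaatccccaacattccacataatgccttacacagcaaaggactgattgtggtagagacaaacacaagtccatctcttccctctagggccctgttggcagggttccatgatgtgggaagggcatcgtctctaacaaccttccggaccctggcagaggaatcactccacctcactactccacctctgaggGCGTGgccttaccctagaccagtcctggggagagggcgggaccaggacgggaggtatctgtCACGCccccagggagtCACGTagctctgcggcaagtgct
Pdha1 (chrX:160138381-160138680, minus strand): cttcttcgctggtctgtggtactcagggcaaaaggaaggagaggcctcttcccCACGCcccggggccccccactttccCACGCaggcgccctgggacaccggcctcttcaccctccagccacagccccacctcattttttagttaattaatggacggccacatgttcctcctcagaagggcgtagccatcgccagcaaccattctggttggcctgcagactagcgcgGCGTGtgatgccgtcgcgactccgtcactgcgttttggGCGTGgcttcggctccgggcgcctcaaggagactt
The core stood 2 times in the windows of Slc16a3 and G6pdx, 3 times in that of Aldoc and 4 times in that of Pdha1, so it was present in the promoters of both the members higher in XY and those higher in XX. RefSeq gave 56 promoters for 36 of the 37 members. The core was in 73.2% of these, in 58.9% of the promoters of genes tested and in 43.8% of all promoters of the same length, and the median GC content of the 3 sets was 58.3%, 60% and 52.7%. The E-box CACGTG, bound by MYC among other factors, was in none of the 4 windows, and in 7 of the 56 member promoters, beside 9.4% of those of genes tested and 7.15% of all. CACGTG contains the core ACGTG, so the counts of these motifs overlap. A match of letters is a description and shows no binding.

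Of the glucose transporters, Slc2a1 (GLUT1) was the main one by TPM in every group and was higher in XY from E12.5 on. Slc2a3 (GLUT3, a high-affinity form) moved from XX at E11.5 to XY at E15.5. The TPM of Slc2a1 in XX was 44.4, 31.4 and 42.6 at E11.5, next 46.8, 40.2 and 35.0 (E12.5), later 39.5, 34.4 and 35.0 (E13.5) and finally 31.9, 35.9 and 24.5 (E15.5). In XY it was 42.1, 41.3 and 42.4 at E11.5, next 55.9, 57.0 and 58.9 (E12.5), later 44.9, 47.9 and 45.6 (E13.5) and finally 40.1, 40.8 and 40.2 (E15.5). The sexes overlapped at E11.5 and were apart at the later stages, where XY was higher by 0.72 ± 0.11 (SE, adjusted p = 9.38e-06) at E12.5, with -0.32 and -0.44 called at E13.5 and E15.5. The E13.5 call was lost without XX E13.5 replicate 2 (-0.23, adjusted p = 0.12) or XY E13.5 replicate 2 (-0.21, adjusted p = 0.146).

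Slc2a3 had a TPM of 51.1, 10.4 and 15.7 in XX and 1.82, 2.0 and 4.23 in XY at E11.5. At E15.5 it was 1.40, 3.08 and 1.99 in XX and 10.3 ± 1.5 (SD, n = 3, lowest 8.61) in XY, with no overlap at either stage and the order turned around. The log2 difference was 3.28 ± 0.46 (SE, adjusted p = 1.09e-05) at E11.5 and -2.18 ± 0.47 (adjusted p = 0.000355) at E15.5. Replicate 1 of XX E11.5 stood above its 2 partners, and without it the E11.5 difference was 2.24 (adjusted p = 1.57e-05). Between these stages the groups overlapped, with TPM between 2.71 and 7.56 in both sexes. Among the 2 transporters, Slc2a1 held 64.9% ± 16 (SD, n = 3) of the summed TPM in XX E11.5 and between 79.7% and 94.8% on average in the other groups.

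In the upper part of the pathway, the hexokinases were higher in XY at E15.5, and aldolase C, triose phosphate isomerase and 2 of 3 phosphofructokinases were higher in XX. Hk1 (hexokinase 1, chr10:62268855-62379908) had a TPM of 73.3, 39.1 and 76.6 in XX and 34.0, 40.2 and 30.7 in XY at E11.5. In XX it was then 52.1, 61.6 and 54.0 (E12.5), later 24.6, 19.6 and 18.4 (E13.5) and finally 7.91, 11.2 and 7.05 (E15.5), whereas in XY it was 121, 116 and 107, then 66.3, 60.6 and 75.7, and at last 65.0, 65.2 and 67.3. The sexes overlapped at E11.5, where XX replicate 2 lay within the XY range. That library had the lowest erythroid and immune marker sums of its group. From E12.5 on every XY library was above every XX library. The log2 difference went from 0.86 ± 0.17 (SE, adjusted p = 0.000334) at E11.5 through -1.19 and -1.62 to -2.87 ± 0.18 (adjusted p = 1.39e-11) at E15.5. Hk1 rose 3.70-fold between E11.5 and E12.5 in XY and fell in XX by 2.30-fold and 2.46-fold over the next steps.

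Hk2 (hexokinase 2, the insulin-responsive form) did not separate the sexes at E11.5, with 41.4, 19.3 and 22.5 TPM in XX and 38.7, 29.8 and 25.0 in XY. Later it was between 27.7 and 36.3 in XX and between 49.4 and 65.2 in XY, with called differences of -1.20, -1.16 and -1.21 at the 3 later stages. Without XX E11.5 replicate 1, the E11.5 difference was also called (-0.49, adjusted p = 0.000754). The share of hexokinase TPM held by Hk1 went from 69.4% ± 7.0 (SD, n = 3) at E11.5 to 19.7% ± 4.1 at E15.5 in XX and was 53.1% ± 5.6 and 52.8% ± 3.6 in XY. The summed TPM of Hk1 and Hk2 at E15.5 was 44.1 ± 1.8 in XX and 125 ± 6.1 in XY (SD, n = 3).

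Aldoc (aldolase C, the brain form) was higher in XX at every stage and fell between E11.5 and E12.5 in XY. Its TPM in XX was 28.4, 37.8 and 21.9 at E11.5, next 39.0, 32.3 and 31.3 (E12.5), later 49.2, 44.9 and 43.2 (E13.5) and finally 51.4, 47.5 and 44.6 (E15.5). In XY it was 24.7, 23.6 and 14.6 at E11.5 and lay between 8.56 and 11.1 in all 9 later libraries. The groups overlapped at E11.5 and were apart afterwards, and the log2 difference was 1.64, 2.22 and 2.43 ± 0.20 (SE, adjusted p = 6.29e-10 at E15.5). The E11.5 difference of 0.56 was not called when XX E11.5 replicate 2 (0.26, adjusted p = 0.205) was left out, or XY E11.5 replicate 3 (0.39, adjusted p = 0.1). Aldoc remained the minor form: of the summed TPM of Aldoa and Aldoc it held 3.89% ± 0.30 in XX and 0.663% ± 0.058 in XY at E15.5 (SD, n = 3). Aldoa (aldolase A, the muscle and general form) was 1198, 1293 and 1064 in XX and 1399, 1409 and 1442 in XY at E15.5. It was called higher in XY at E12.5 (-0.61) and E13.5 (-0.32), and the E13.5 call was lost without XX E13.5 replicate 2 or XY E13.5 replicate 2 (-0.25 and -0.23). The E15.5 difference of -0.23 (adjusted p = 0.0528) was not called in the main fit. Some alternatives called it, among them limma-trend on log2(TPM + 1) (-0.26, adjusted p = 0.0204) and edgeR on only the libraries compared (-0.21, adjusted p = 0.018).

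Of the phosphofructokinase subunits, Pfkl (liver form) held between 83.7% and 90.4% of the summed TPM on average in each group. Its TPM at E15.5 was 349, 360 and 313 in XX and 207, 212 and 236 in XY, with no overlap and a difference of 0.61 ± 0.13 (SE, adjusted p = 0.00027). Pfkl was also called at E13.5 (0.87) and at E11.5 (0.36), where leaving out XX replicate 1 or 2 or XY replicate 1 or 3 ended the call (0.27 to 0.37). Pfkm (muscle form) was higher in XX at the 3 later stages, with 38.05, 43.7 and 30.8 TPM against 23.7, 21.8 and 21.7 at E15.5 and a difference of 0.75. Pfkp (platelet form) was higher in XY at E11.5, with 3.80, 4.64 and 4.11 TPM in XX and 21.2, 13.3 and 11.3 in XY (-1.63 ± 0.19 SE, adjusted p = 8.19e-07), and at E12.5 and E15.5. Pfkp shares a stretch of transcript with its neighbour Pitrm1, whose counts were between 642.9% and 1420% of its own by group, so its counts are uncertain. Tpi1 (triose phosphate isomerase) was 260, 273 and 236 in XX and 144, 134 and 141 in XY at E15.5, with called differences of 0.31, 0.88 and 0.90 at the 3 later stages. Its E12.5 call was lost without XX E12.5 replicate 2 or XY E12.5 replicate 1 (0.30 and 0.32). Gpi1 (glucose phosphate isomerase) was called higher in XY at E12.5 (-0.58) and E15.5 (-0.32), and the E15.5 call was lost without XX E15.5 replicate 2 or 3 or XY E15.5 replicate 2 or 3 (-0.23 to -0.27).

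**Figure D3:**
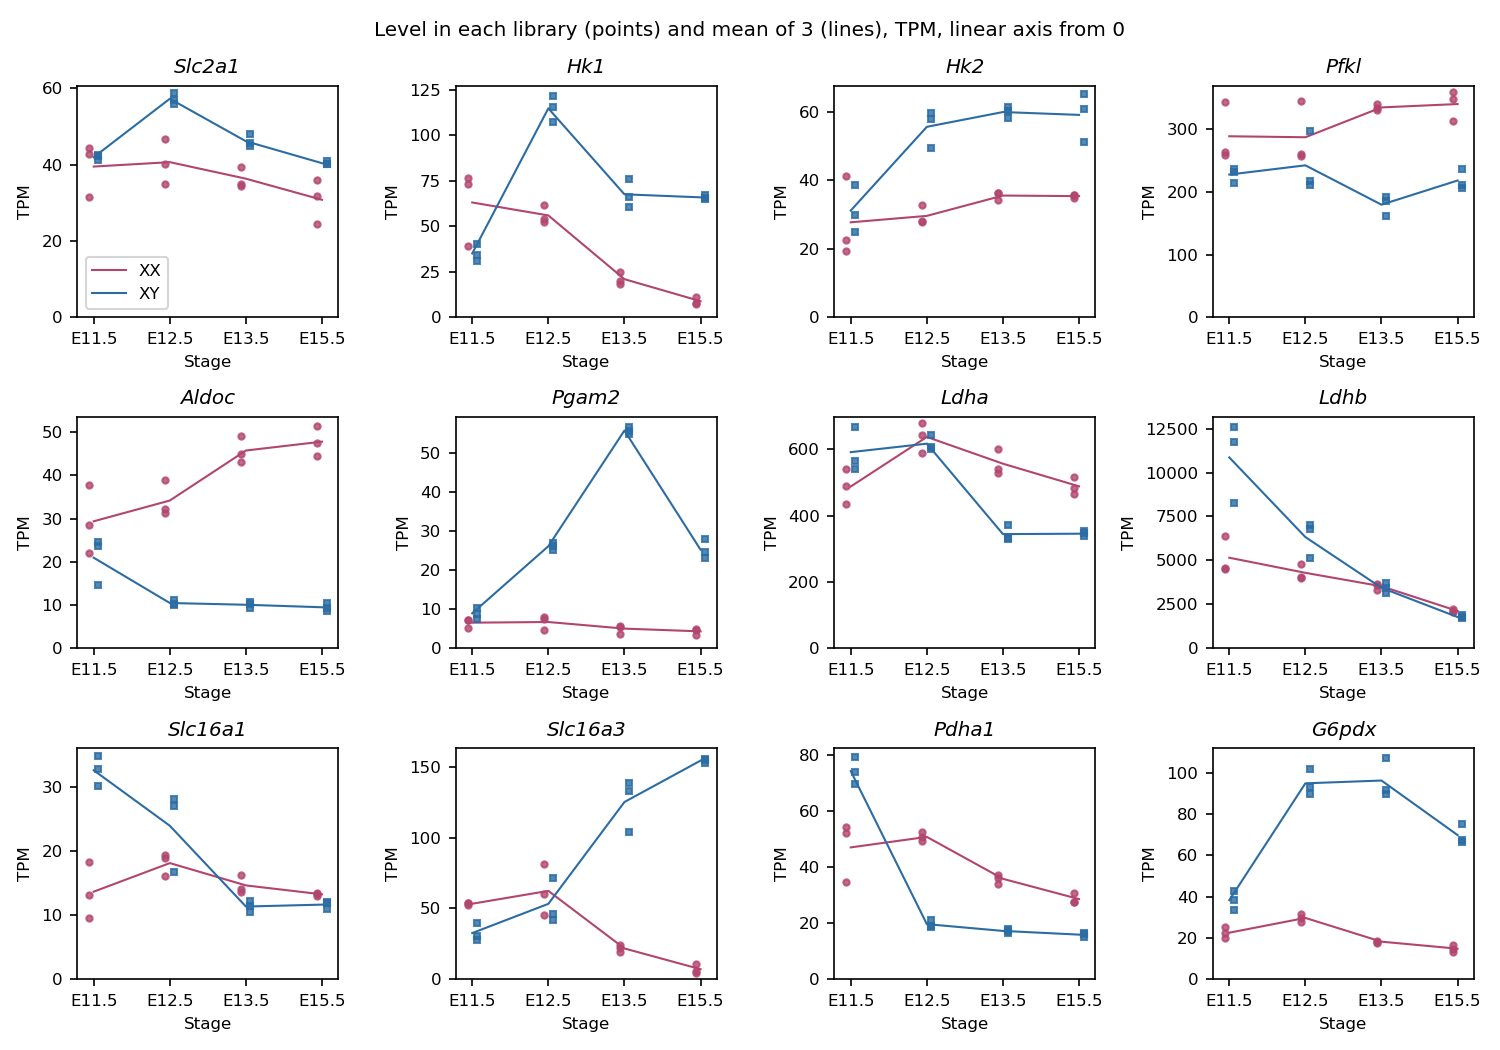
TPM of 12 members in each library, by stage, with points for libraries, lines for the mean of 3 libraries, XX in red circles and XY in blue squares, and each axis starting at 0. Hk1 and Slc16a3 fall in XX to at most 11.2 TPM at E15.5, Aldoc lies between 8.56 and 11.1 in the later XY libraries, and Ldhb falls in both sexes.

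The 4 Pfkfb enzymes make and break fructose-2,6-bisphosphate, the signal that switches phosphofructokinase on, and they differed in direction. Pfkfb4 was higher in XX at E11.5, E12.5 and E13.5, with 17.3, 17.9 and 14.2 TPM against 9.82, 7.91 and 9.22 at E11.5 and 28.3, 31.1 and 28.3 against 12.3, 8.86 and 6.42 at E12.5. At E15.5 it was 8.48, 15.8 and 7.69 in XX and 5.99, 5.81 and 7.98 in XY, overlapping, with a difference of 0.19 (adjusted p = 0.335). It was called at this stage by limma-trend on log2(TPM + 1), at 0.57 (adjusted p = 0.0196), and on log2(TPM + 0.1), at 0.62 (adjusted p = 0.0178). The E12.5 difference was 1.39 ± 0.17 (SE, adjusted p = 3.98e-07). Pfkfb3, whose product strongly favours synthesis, was higher in XY at all 4 stages, by 0.95, 0.55, 0.85 and 1.54 on the log2 scale. At E15.5 its TPM was 3.02, 2.24 and 1.90 in XX and 4.83, 5.17 and 3.85 in XY, without overlap. Its E12.5 call was lost with any of the 6 E12.5 libraries left out (-0.39 to -0.56, adjusted p from 0.0766 to 0.208).

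Pfkfb2 (heart form) was higher in XY at the first 3 stages, with TPM at E13.5 of 2.88, 1.58 and 1.88 in XX and 5.61, 6.46 and 5.57 in XY (-1.49 ± 0.22 SE, adjusted p = 3.68e-06). Its E11.5 call was lost without XX E11.5 replicate 2 (-0.44, adjusted p = 0.0828). Pfkfb1 (liver and muscle form) was called only at E15.5, with 3.52, 4.61 and 3.22 TPM in XX and 6.70, 6.33 and 4.76 in XY (-0.68). Without XX E12.5 replicate 3 it was also called at E12.5 (-0.68, adjusted p = 0.00241). Pfkfb4 held 62.3% ± 3.4 of the family's TPM in XX and 29.4% ± 6.5 in XY at E12.5 (SD, n = 3), and 52.6% ± 6.7 and 30.5% ± 6.1 at E15.5.

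In the lower part of glycolysis, 6 of 8 members were called higher in XY in the E12.5 libraries and 5 at E15.5, beside 31.5% and 34.4% of all genes, and 2 and 3 were called higher in XX, beside 30.5% and 34.9%. Pgam2 (muscle phosphoglycerate mutase) gave the widest difference apart from the scarce Eno2. Its TPM in XX was 5.04, 7.21 and 7.27 at E11.5 and between 3.39 and 7.99 in the 9 later libraries. In XY it was 8.82, 10.4 and 7.56 at E11.5, next 26.2, 26.9 and 25.2 (E12.5), later 54.9, 56.5 and 55.7 (E13.5) and finally 23.1, 24.6 and 27.9 (E15.5), a peak at E13.5 that stood apart from all other groups. The difference at E13.5 was -3.45 ± 0.22 (SE, adjusted p = 2.15e-11). Pgam2 rose in XY by 3.33-fold and then 2.10-fold and fell by 2.23-fold from E13.5 to E15.5. Pgam1, the general form, was also higher in XY from E12.5 on, with 351, 346 and 307 TPM in XX and 640, 655 and 648 in XY at E15.5 (-0.89 ± 0.09 SE, adjusted p = 2.40e-08). The Pgam2 share of the summed TPM of both forms was 7.38% ± 0.31 in XY E13.5 and between 1.15% and 1.56% on average in XX (SD, n = 3), and from CPM it was 3.46% in XY E13.5.

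Gapdh (glyceraldehyde-3-phosphate dehydrogenase) was higher in XY at every stage. Its TPM at E15.5 was 122, 155 and 108 in XX and 377, 339 and 334 in XY, with a difference of -1.23 ± 0.15 (SE, adjusted p = 1.81e-07), and at the earlier stages the differences were -0.39, -0.54 and -0.70. The E11.5 call was lost without XX E11.5 replicate 3 (-0.25, adjusted p = 0.153), XY E11.5 replicate 1 (-0.30, adjusted p = 0.135) or XY E11.5 replicate 2 (-0.34, adjusted p = 0.0958). Gapdh has many near-identical copies: 78 annotated genes matched its transcripts over at least 200 bases at 95% identity or more, and 65 of them were in the deposited tables. The counts of these copies, mostly of Gm13394, came to between 17.2% ± 2.0 of those of Gapdh in XX E15.5 and 59.4% ± 10 in XY E11.5 (SD, n = 3). How reads were divided between them is not given in the sources used here. With the copies' counts added, the Gapdh differences were -0.66, -0.54, -0.97 and -1.32 over the 4 stages, all called. Gpi1, Tpi1, Pfkfb2, Pgk1, Pgam1, Pkm, Ldha and Ldhb also had near-identical copies, none of them in the deposited tables. For Pgk1, the copy Pgk1-rs7 matched at 100% over 1255 bases. How reads shared with such copies were counted is not given.

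Eno1 (enolase 1, the general form) was 1190, 811 and 1287 TPM in XX and 2292, 2322 and 1841 in XY at E11.5. At E12.5 it was 1340, 1355 and 1125 in XX and 2318, 2863 and 2774 in XY, and at E15.5 it was 744, 813 and 641 in XX and 1355, 1398 and 1454 in XY. The groups did not overlap, and the differences were -0.88, -1.27 and -0.88. At E13.5 the difference was -0.20 (adjusted p = 0.177), and it was -0.42 (adjusted p = 0.000747) with the counts of its near-identical copy Eno1b added. Eno3 (muscle form) was called higher in XX at all 4 stages, with 26.7, 41.8 and 24.2 TPM against 18.0, 24.7 and 25.4 at E11.5 and 28.8, 23.2 and 26.1 against 11.3, 11.9 and 12.7 at E13.5 (1.15 ± 0.20 SE). Its E11.5 call was lost when XX E11.5 replicate 2 (0.12) was left out, or XY E11.5 replicate 1 (0.39), and its E15.5 call without XX E15.5 replicate 1 (0.49). Eno2 (neuronal form) was at most 1.94 TPM in any library. Eno2 had 50, 69 and 69 counts in XY at E11.5 and at most 5 counts in each of the 9 later XY libraries, against between 3 and 30 counts in the later XX libraries. The later Eno2 differences were called in edgeR, but with most XY libraries at 0 to 2 counts the fitted size depends on the prior count and is not given.

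**Figure D4:**
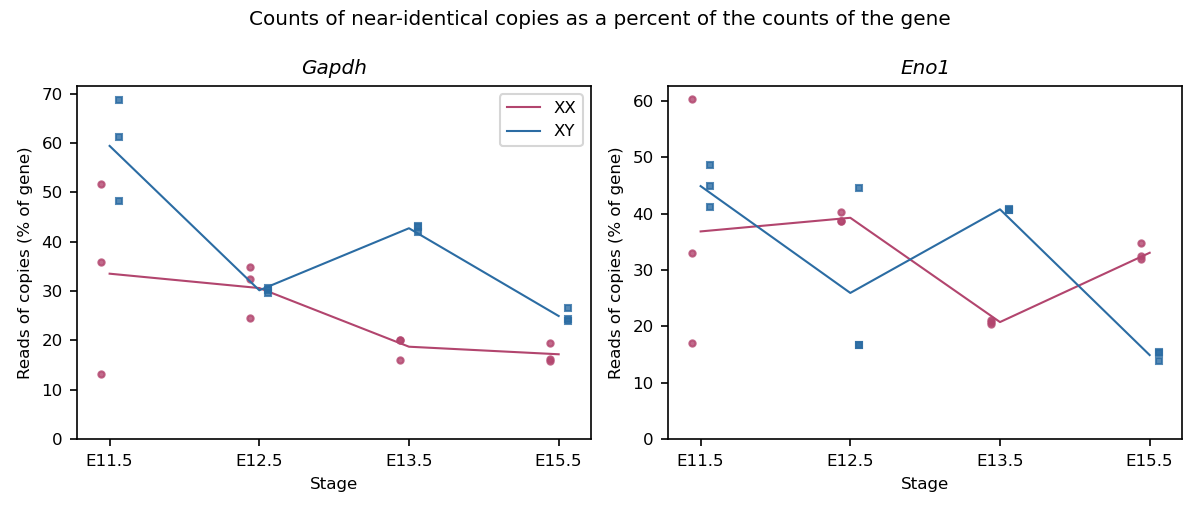
Counts of near-identical copies as a percent of the counts of Gapdh (left) and Eno1 (right) in each library, by stage, with lines for the mean of 3 libraries. The copies of Gapdh reach 68.8% in XY E11.5, and the share of Eno1b differs between libraries of XX E11.5 (33.1%, 60.3% and 17.1%) and of XY E12.5 (44.5%, 16.6% and 16.6%).

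Pgk1 (phosphoglycerate kinase 1, chrX:106187100-106203699) changed side. Its TPM at E12.5 was 224, 209 and 176 in XX and 304, 277 and 284 in XY, and at E13.5 it was 220, 209 and 202 in XX and 169, 175 and 165 in XY, apart at both stages. The difference went from -0.71 ± 0.09 (SE, adjusted p = 7.58e-07) at E12.5 to 0.37 ± 0.09 (adjusted p = 0.00122) at E13.5. The E11.5 difference of -0.27 was not called when XX E11.5 replicate 2 (-0.22, adjusted p = 0.0554) was left out, or XY E11.5 replicate 1 (-0.19, adjusted p = 0.108), and the E15.5 difference of 0.21 was not called without XX E15.5 replicate 1 or 3 or XY E15.5 replicate 1 (0.16 to 0.23). Pgk1 fell 1.73-fold in XY from E12.5 to E13.5. Pkm (pyruvate kinase, whose splice forms were not separated) was called higher in XY at E12.5 (-0.31) and E15.5 (-0.33). At E15.5 its TPM was 663, 785 and 576 in XX and 831, 867 and 878 in XY. These calls were lost without XX E12.5 replicate 3 (-0.18) or XY E12.5 replicate 1 (-0.24) and without XY E15.5 replicate 3 (-0.23).

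Among the lactate genes, Slc16a3 (MCT4, the low-affinity transporter of cells that export lactate) showed the widest sex difference of all members by fold at E15.5 apart from Eno2. Its TPM in XX was 54.0, 53.7 and 52.0 at E11.5, next 60.3, 81.6 and 45.0 (E12.5), later 24.2, 18.9 and 21.7 (E13.5) and finally 5.78, 10.8 and 4.40 (E15.5). In XY it was 30.5, 39.5 and 27.6 at E11.5, next 71.1, 42.0 and 46.3 (E12.5), later 133, 104 and 139 (E13.5) and finally 156, 152 and 155 (E15.5). XX was above XY at E11.5, the sexes overlapped at E12.5, and every XY library was above every XX library at E13.5 and E15.5. The log2 difference was 0.77 ± 0.22 (SE, adjusted p = 0.00843) at E11.5 and -0.01 (adjusted p = 0.978) at the next stage, then -2.47 ± 0.23 (adjusted p = 1.09e-08) and in the last stage -4.29 ± 0.26 (adjusted p = 8.43e-12). Slc16a3 fell in XX by 2.39-fold and 2.90-fold over the last 2 steps and rose in XY by 1.83-fold and 2.31-fold over the first 2.

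Slc16a1 (MCT1, the high-affinity form) fell in XY, by 2.16-fold from E12.5 to E13.5. In XX its TPM was 18.2, 13.1 and 9.59 at E11.5, next 18.8, 19.3 and 16.2 (E12.5), later 16.2, 13.7 and 14.0 (E13.5) and finally 13.2 ± 0.28 (SD, n = 3) at E15.5. In XY it was 34.8, 32.8 and 30.2 at E11.5, next 16.6, 27.0 and 28.2 (E12.5), later 12.1, 11.4 and 10.5 (E13.5) and finally 11.8, 12.1 and 10.97 (E15.5). It was apart at E11.5 (-1.18 ± 0.18 SE, adjusted p = 1.76e-05), overlapped at E12.5 and was a little higher in XX at E13.5 (0.42 ± 0.18, adjusted p = 0.0404). The E12.5 call (-0.61) was lost without XY E12.5 replicate 2 (-0.46, adjusted p = 0.0518) or replicate 3 (-0.40, adjusted p = 0.0768), and the E13.5 call without XX E13.5 replicate 1 (0.35, adjusted p = 0.128), XX E13.5 replicate 3 (0.45, adjusted p = 0.0603) or XY E13.5 replicate 3 (0.37, adjusted p = 0.12). Of the summed TPM of both transporters, Slc16a3 held 79.9% ± 4.9 in XX and 49.7% ± 4.3 in XY at E11.5, and 33.4% ± 9.9 and 93.0% ± 0.37 at E15.5 (SD, n = 3). Shares of TPM weigh each gene by its transcript length: from CPM, the Slc16a3 share was 31.6% in XY E11.5 and 20.5% in XX E15.5. The summed TPM of both transporters at E15.5 was 20.2 ± 3.6 in XX and 166 ± 1.5 in XY.

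Ldhb, whose subunit favours lactate oxidation, was higher in XY at the first 2 stages and was not called at the others in the main fit. Its TPM was 6378, 4566 and 4507 in XX and 11718, 12624 and 8260 in XY at E11.5, and 4795, 4003 and 4070 against 5147, 7036 and 6799 at E12.5. At E13.5 it was 3633, 3616 and 3320 in XX and 3150, 3715 and 3442 in XY, overlapping, and at E15.5 it was 2217, 2086 and 2044 against 1690, 1745 and 1875. The differences were -0.99 ± 0.15 (SE, adjusted p = 1.89e-05) and -0.77 at the first 2 stages, then 0.09 (adjusted p = 0.62) and 0.33 (adjusted p = 0.0512). At E15.5 every XX library was above every XY library in TPM. That difference was called by DESeq2 (0.36, adjusted p = 0.0236), and in edgeR without XX E15.5 replicate 2 or XY E15.5 replicate 3 (0.46 in both). It was also called in edgeR with DESeq2 size factors (0.36, adjusted p = 0.0303) and with at least 10 counts in every library (0.38, adjusted p = 0.0235). In edgeR on only the libraries compared it was called as well (0.35, adjusted p = 0.00208). Ldhb fell in XY at each step, by 1.47-fold, 1.87-fold and 1.97-fold, and in XX by 1.66-fold from E13.5 to E15.5.

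Ldha, whose subunit favours lactate formation, was the lesser form by TPM and was higher in XX at the later stages. Its TPM was 540, 490 and 434 in XX and 667, 566 and 542 in XY at E11.5, next 644, 680 and 588 against 602, 607 and 642 (E12.5), later 600, 541 and 530 against 370, 333 and 329 (E13.5), and finally 483, 516 and 467 against 346, 338 and 352 (E15.5). The sexes overlapped at the first 2 stages and were apart at the last 2, with differences of 0.71 ± 0.10 (SE, adjusted p = 2.93e-06) and 0.37 ± 0.10 (adjusted p = 0.00282). Ldha fell 1.88-fold in XY from E12.5 to E13.5. The E11.5 difference of -0.25 (adjusted p = 0.0524) was called when XX E11.5 replicate 1 or 2 or XY E11.5 replicate 2 or 3 was left out (-0.28 to -0.32). With the replicate number as a block it was also called (-0.25, adjusted p = 0.0446). Ldha held 8.76% ± 0.95 of the summed TPM of Ldha and Ldhb in XX and 5.28% ± 0.94 in XY at E11.5, and 18.8% ± 0.98 and 16.3% ± 0.60 at E15.5 (SD, n = 3). This share rose in both sexes while the TPM of Ldhb fell. Between E11.5 and E15.5 the TPM of Ldha itself fell in XY and overlapped in XX.

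**Figure D5:**
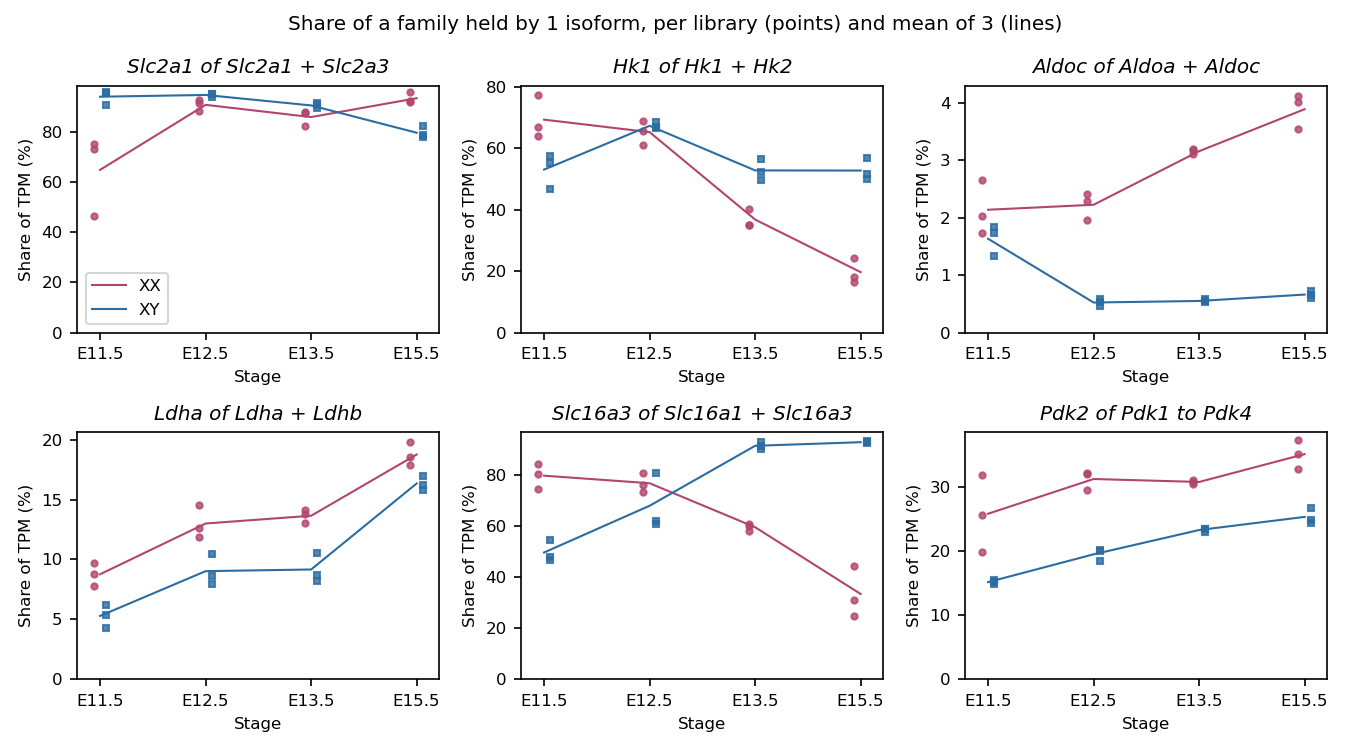
Share of the summed TPM of a family held by 1 of its genes in each library, by stage, for 6 families, with points for libraries and lines for the mean of 3 libraries (XX red, XY blue). The Slc16a3 share falls in XX to a mean of 33.4% and rises in XY to 93.0% by E15.5, the Hk1 share falls in XX to 19.7%, and the Ldha share rises in both sexes.

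At the branch to the mitochondrion, Pdha1 (the catalytic alpha subunit of pyruvate dehydrogenase, chrX:160122209-160138413) fell sharply in XY. Its TPM in XY was 79.2, 69.5 and 73.9 at E11.5, next 18.5, 19.1 and 21.2 (E12.5), later 18.0, 16.5 and 17.0 (E13.5) and finally 15.1, 16.3 and 16.2 (E15.5), and in XX it was 54.2, 34.7 and 52.0, then 52.4, 50.5 and 49.2, then 37.3, 34.1 and 35.9, and last 27.4, 30.7 and 27.5. XY was above XX at E11.5 (-0.59 ± 0.10 SE, adjusted p = 9.91e-05) and below it in every library afterwards, with 1.28 ± 0.10 (adjusted p = 9.88e-10) at E12.5, followed by 1.13 and 0.99. The fall between E11.5 and E12.5 in XY was 3.48-fold. Pdha1 overlaps Map3k15, which had at most 2.98% of its counts by group.

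Of the kinases that switch the complex off, Pdk2 was higher in XX and Pdk3 in XY at all 4 stages. Pdk2 had 31.6, 43.6 and 35.4 TPM in XX and 24.2, 22.5 and 21.0 in XY at E11.5, next 57.7, 62.7 and 57.4 against 38.2, 34.2 and 31.0 (E12.5), later 56.4, 50.9 and 49.9 against 32.3, 33.8 and 35.6 (E13.5), and finally 50.4, 59.6 and 40.2 against 32.8, 33.0 and 35.0 (E15.5). No stage overlapped, and the difference stayed between 0.56 and 0.74 (SE 0.13 at E11.5). Pdk2 rose in both sexes from E11.5 to E12.5, by 1.54-fold in XX and 1.75-fold in XY. Pdk3 differed by -0.22 to -0.36, with 48.3, 50.9 and 43.9 TPM in XX and 60.5, 58.9 and 55.1 in XY at E15.5, and its E12.5, E13.5 and E15.5 calls were each lost when 1 of 3, 5 and 4 of the compared libraries was left out (values from -0.15 to -0.23).

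Pdk4, a starvation-induced kinase, was the lowest of the family and was higher in XX until E13.5. At E12.5 its TPM was 5.04, 5.79 and 9.91 in XX and 1.53, 0.720 and 1.83 in XY (2.27 ± 0.33 SE, adjusted p = 4.31e-06), with called differences of 1.33 and 1.78 at E11.5 and E13.5. At E15.5 it was 0.840, 1.51 and 1.29 in XX and 1.01, 2.01 and 0.980 in XY, overlapping, with a difference of -0.03 (adjusted p = 0.944). Pdk1, a hypoxia-responsive kinase, was called at E12.5 alone, with 64.1, 64.2 and 48.7 TPM in XX and 80.6, 68.1 and 67.0 in XY (-0.65 ± 0.15 SE, adjusted p = 0.000976). Its E13.5 difference of 0.35 (adjusted p = 0.0517) was called without XX E13.5 replicate 2 or XY E13.5 replicate 2 or 3 (0.41 to 0.44). Pdk2 held 35.2% ± 2.3 of the summed TPM of the 4 kinases in XX and 25.4% ± 1.2 in XY at E15.5 (SD, n = 3).

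No gluconeogenic member was called at E15.5. Pck2 (mitochondrial phosphoenolpyruvate carboxykinase) was higher in XX at the first 3 stages, with 54.9, 59.7 and 58.6 TPM in XX and 22.6, 19.4 and 22.6 in XY at E12.5 (1.18 ± 0.11 SE, adjusted p = 7.35e-09). At E15.5 it was 29.8, 35.5 and 26.4 in XX and 32.0, 30.4 and 33.5 in XY, overlapping, with a difference of -0.06 (adjusted p = 0.658). Its E11.5 call (0.35) was lost without XX E11.5 replicate 2 (0.22, adjusted p = 0.11). Fbp1 (fructose-1,6-bisphosphatase of liver and kidney) was at most 2.41 TPM in any library and was called at E12.5 alone, with 0.260, 1.16 and 0.290 TPM in XX and 2.33, 2.41 and 1.92 in XY (-2.65 ± 0.52 SE, adjusted p = 0.000151). Without XX E11.5 replicate 2 it was also called at E11.5 (-1.62, adjusted p = 0.0255). Fbp2 was at most 0.670 TPM in any library.

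G6pdx (glucose-6-phosphate dehydrogenase, which opens the pentose phosphate pathway, chrX:74409483-74429194) was higher in XY at all 4 stages. Its TPM in XX was 22.2, 19.9 and 25.5 at E11.5, next 27.9, 29.4 and 31.7 (E12.5), later 18.1, 17.7 and 18.6 (E13.5) and finally 14.7, 16.4 and 13.1 (E15.5). In XY it was 42.6, 38.6 and 33.6 at E11.5, next 89.8, 93.4 and 102 (E12.5), later 107, 89.8 and 91.9 (E13.5) and finally 75.5, 67.7 and 66.6 (E15.5). No stage overlapped, and the difference was -0.68 ± 0.10 (SE, adjusted p = 1.58e-05), -1.95 ± 0.10 (adjusted p = 8.97e-13), -2.37 ± 0.11 (adjusted p = 5.42e-14) and -2.22 ± 0.11 (adjusted p = 1.46e-13). G6pdx rose 2.87-fold between E11.5 and E12.5 in XY. Pgd (6-phosphogluconate dehydrogenase) was also called higher in XY, at E11.5 (-0.52), E13.5 (-0.44) and E15.5 (-0.27). At E15.5 its TPM was 43.4, 46.4 and 35.6 in XX and 54.2, 51.8 and 50.2 in XY, and that call was lost without XX E15.5 replicate 2 or 3 or XY E15.5 replicate 2 or 3 (-0.20 to -0.22). The 5 X-linked members (Pfkfb1, Pgk1, Pdk3, Pdha1 and G6pdx) thus held called differences in both directions at E15.5: Pdha1 and Pgk1 were higher in XX, and Pfkfb1, Pdk3 and G6pdx were higher in XY.

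Across stages, the share of members that changed was close to that of all genes in XX and above it in XY. The F test for any change across the 4 stages called 27 of 36 members (75%) in XX, against 74% of all genes. In XY it called 35 (97.2%), against 70.3% of all genes, and Pdk4 was the member not called (adjusted p = 0.545). From E11.5 to E12.5 in XX, 10 members rose and 2 (Slc2a3 and Pgk1) fell, against 16.7% and 17.3% of all genes. The XX E11.5 libraries are those with erythroid and immune marker RNA, and a fit of only the 6 libraries compared called 3 that rose and 1 that fell, where it called 2.45% and 5.54% of all genes. Without XX E12.5 replicate 2 the number that rose was 6. From E12.5 to E13.5 in XX, 3 rose (Pfkl, Aldoc and Pgk1) and 10 fell, against 14.2% and 17.4% of all genes. On the log2(TPM + 1) scale the split was 0 and 14, where 6.60% of all genes rose and the median of all genes was -0.14. In edgeR the total was 7 when XX E12.5 replicate 2 was left out and 8 when XX E13.5 replicate 3 was, in place of 13. The number that fell was 5 and 6 in these, and 6 without XX E13.5 replicate 2. From E13.5 to E15.5 in XX, 19 members (52.8% of those tested) fell and 0 rose, against 12.8% of all genes in each direction. Over the same step the summed TPM of 8 germ cell markers went from between 22.5 and 43.5 to between 119 and 186 in the XX libraries. That of 4 surface epithelium markers went from between 166 and 180 to between 260 and 311, and that of 5 steroidogenic markers from between 153 and 164 to between 240 and 263. The germ cell sum in XY went from between 16.1 and 23.7 to between 67.7 and 120. The part of these cells in the falls was not tested. Pfkfb2 was the 1 member that rose at an unadjusted p under 0.05, and DESeq2 and limma-trend also called 0. The number that fell was 9 without XX E15.5 replicate 3, 11 without XX E13.5 replicate 1 and between 10 and 26 under the other alternatives. Without XX E13.5 replicate 1, or without all E11.5 libraries, 1 member rose. Those that fell the most by fold in edgeR were Slc16a3, Pdk4 and Hk1 (2.90-fold, 2.63-fold and 2.46-fold).

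In XY the step between E11.5 and E12.5 was a rise for 19 members and a fall for 4, against 27.1% and 24.8% of all genes. Hk1, Pgam2 and G6pdx rose most, by 3.70-fold, 3.33-fold and 2.87-fold, and Eno2, Pdha1, Aldoc and Ldhb fell. On the log2(TPM + 1) scale the split was 11 and 8, against 16.4% and 30.1% of all genes. Without XY E11.5 replicate 3, which had the highest stromal marker sum and the lowest Ldhb of its group, 11 members rose and 7 fell. From E12.5 to E13.5 in XY, 2 rose (Pgam2 and Slc16a3) and 16 (44.4% of those tested) fell, against 8.02% and 8.62% of all genes. Leaving out 1 library gave between 10 and 12 that fell, the lowest without XY E13.5 replicate 3. From E13.5 to E15.5 in XY, 1 rose (Pck2) and 7 fell, against 1863 of the 16190 genes tested that rose and 9.79% that fell, and a fit of only the 6 libraries compared called 4 and 14, where 44.3% of all genes were called in either direction and 21.3% as falls. Without XY E13.5 replicate 3 or XY E15.5 replicate 1 the total was 5 in place of 8. The median log2 change of the members over the 3 steps was 0.12, -0.08 and -0.33 in XX and 0.30, -0.32 and -0.17 in XY. Over all genes it lay between -0.01 and 0.03 on the edgeR scale. On the log2(TPM + 1) scale the median of all genes moved to 0.14 in XX minus XY at E12.5, to -0.14 from E12.5 to E13.5 in XX and to -0.12 from E11.5 to E12.5 in XY.

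A further 51 genes of the same pathways, from other transporters and isozymes to pyruvate import and the later pentose phosphate steps, were counted at E15.5. Of the 42 tested, 16 (38.1%) were called for XX and 15 (35.7%) for XY, beside 34.9% and 34.4% of all genes, with a median difference of -0.02. Emb (embigin, a partner of monocarboxylate transporters) was higher in XY, with 1.39, 1.09 and 1.09 TPM in XX and 11.6, 9.10 and 9.39 in XY (-3.27 ± 0.29 SE, adjusted p = 2.85e-09). Pcx (pyruvate carboxylase) had 3.67, 5.33 and 2.61 TPM in XX and 30.0, 28.9 and 31.0 in XY (-3.03). Pdpr, a regulator of the phosphatase that switches pyruvate dehydrogenase back on, had 1.82, 3.09 and 2.54 in XX and 23.9, 22.4 and 21.6 in XY (-2.97). Pdp2, a catalytic subunit of that phosphatase, was higher in XX, with 46.3, 44.9 and 53.6 TPM in XX and 9.30, 10.5 and 10.3 in XY (2.33 ± 0.17 SE, adjusted p = 9.34e-11). Mpc1 (a subunit of the mitochondrial pyruvate carrier) had 283, 252 and 284 in XX and 116, 114 and 113 in XY (1.32). Tkt (transketolase) had 392, 452 and 319 in XX and 177, 176 and 173 in XY (1.17).

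Genes of the hypoxia response and MYC, which act on many glycolytic promoters, were counted as well. All 23 in the tables were tested, and 9 (39.1%) were called for XX and 10 (43.5%) for XY at E15.5, beside 34.9% and 34.4% of all genes, with a median difference of -0.14. Hif1a (the oxygen-regulated factor itself) had 81.8, 109 and 88.2 TPM in XX and 265, 246 and 217 in XY (-1.33 ± 0.11 SE, adjusted p = 1.38e-09), and Mycn had 12.2, 16.7 and 9.87 in XX and 150, 147 and 143 in XY (-3.47 ± 0.18 SE, adjusted p = 4.35e-13). Egln2, a prolyl hydroxylase that marks HIF for breakdown, was higher in XY as well (-1.56). On the other side, Adm (adrenomedullin, a HIF target in many cells) had 25.3, 26.0 and 24.4 TPM in XX and 1.59, 2.59 and 1.51 in XY (3.76 ± 0.33 SE, adjusted p = 3.04e-09), Ak4 (a mitochondrial adenylate kinase) 6.05, 6.16 and 4.26 against 0.60, 1.63 and 1.60 (2.93), and Egln1 14.8, 14.8 and 14.8 against 4.79, 4.30 and 5.18 (1.69).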

How the data were processed

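Polyadenylated RNA of 24 libraries of sorted cells was sequenced after cDNA amplification without molecular identifiers, per the labels' protocols. The authors deposited estimated counts per gene, 17.5% of them not whole and here rounded, and TPM values, which the authors scaled by transcript length and library. The build was mm10 per the submitters' processing notes. The aligner, the counting program and the use of strand are not given in the sources used here. Total counts ranged from 11275251 to 37256881, and 3 counts, taken as the floor, came to between 0.0774 and 0.260 CPM, a limit that covers counting error only.

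The count test was edgeR 4.0.16 under R 4.3.3, with filterByExpr (16190 genes), TMM scaling, and a robust quasi-likelihood fit of 8 group means (16 residual degrees of freedom, common biological coefficient of variation 17.4%). All adjusted p-values in the text come from this test or, where named, an alternative, with Benjamini-Hochberg adjustment over all genes tested and a threshold of 0.05. The script was checked on simulated counts. Alternatives were DESeq2 1.42.0, DESeq2 size factors, other count filters, limma-trend (limma 3.58.1) on log2(TPM + 1) and log2(TPM + 0.1) where 3 libraries reached a TPM of 1 or on all genes above 0, the replicate number as a block, fits restricted to the libraries of a comparison, and each library omitted in turn. Fits without the E11.5 libraries or with copies' counts added (BLAST 2.17.0) were chosen after seeing the data. Gene positions are from GENCODE M21 and promoters from RefSeq on GRCm38.p6.

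Same-numbered libraries of the sexes deviated together at E11.5 (r = 0.201, 0.137 and 0.336), where all 3 pairs were over 0.1. The numbers may pair the libraries there, but the main fit has no pairing. The replicate block fits an effect per number that is shared by all 8 groups, so it cannot test a pairing at E11.5 alone. In each of the other 9 comparisons at most 2 of 3 pairs were over 0.1. Between the sexes at E12.5 all 3 were above 0 (r = 0.218, 0.050 and 0.183). There, as at E11.5, 5 of 6 differently numbered pairs were below 0. The numbers may pair the libraries at E12.5 too, and the block cannot test that stage alone either.

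The members and lists were chosen with earlier results of these data known. Values per library were given for, in each of 8 roles, up to 2 members with the widest called sex difference at 10 or more CPM, other forms of the same enzyme, and members called in opposite directions, and for other members after their values were seen. Genes of the other lists were named when called at E15.5 with a log2 difference of 1 or more in size at 10 CPM, the 3 widest in each direction.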

Additional observations from a re-analysis of the deposited data

Results flagged for a closer look

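The XX minus XY difference changed with stage in 29 of the 36 members tested, by the sex by stage term of the edgeR fit, where 70.1% of all genes were called. Each adjusted p follows the gene name. It was smallest for members whose called differences took opposite signs or grew after E11.5: Slc16a3 (3.35e-10), Hk1 (9.31e-10), Pdha1 (2.06e-09), G6pdx (8.89e-09) and Pgam2 (2.81e-07). Among the other lactate and transport genes it was called for Slc2a3 (6.4e-06), Slc2a1 (0.00671), Ldha (1.0045e-05), Ldhb (1.87e-05) and Slc16a1 (2.46e-05). In upper glycolysis and its regulators it was called for Hk2 (0.000267), Pfkl (0.0023), Pfkm (0.00255), Pfkp (0.00117), Aldoa (0.00067), Aldoc (1.34e-05), Tpi1 (8.51e-06), Pfkfb2 (0.0199) and Pfkfb4 (0.00122). In lower glycolysis it was called for Gapdh (0.00571), Pgk1 (1.03e-06), Pgam1 (6.42e-05), Eno1 (0.000287), Eno2 (0.00131) and Pkm (0.00731). Of the kinases and gluconeogenic genes it was called for Pdk1 (0.00159), Pdk4 (0.00157), Pck2 (6.34e-06) and Fbp1 (0.0173). It was not called for Gpi1, Pfkfb1, Pfkfb3, Eno3, Pdk2, Pdk3 and Pgd. The XX E11.5 libraries enter this test with their erythroid and immune marker RNA, whose part in it was not tested.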

How the results depend on the processing

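Of 2400 values of the members' sex differences recomputed under the alternatives, 2169 kept their direction and side of the threshold, 128 were no longer called, 67 became called and 36, none of them called before, changed sign. Slc16a3 at E12.5 turned positive with DESeq2 size factors (0.033), at least 10 counts everywhere (0.0989), DESeq2 (0.0329), log2(TPM + 1) with and without the filter (0.2221), log2(TPM + 0.1) (0.2256), only the libraries compared (0.0532) and E11.5 libraries left out (0.0582). Pdk4 at E15.5 did so with DESeq2 size factors (0.002), at least 10 counts everywhere (0.0257) and DESeq2 (0.0022). On log2(TPM + 1) and log2(TPM + 0.1) the sign changed for Pfkm at E11.5 (-0.0228 and -0.0237), Ldha (0.0446 and 0.0447) and Pgd (0.0291 and 0.0295) at E12.5. The cause was not tested.

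Counts of members moved as follows. Falls between E11.5 and E12.5 in XX were 1 with no filter and on each TPM scale, beside between 9.05% and 11.7% of all genes. Rises in XY from E13.5 to E15.5 were 0 with no filter and 2 with at least 10 counts everywhere and with DESeq2. The shares of all genes were 6.52%, 13.4% and 12.8% in that order. On the TPM scales, rises in XX from E12.5 to E13.5 were 0, beside between 3.91% and 6.60% of all genes. Between E11.5 and E12.5 in XY 11 rose and 8 fell (7 with log2(TPM + 0.1)). Of all genes, between 10.4% and 16.4% rose, and 30.1% fell (30.9% with log2(TPM + 0.1)). With all genes above 0 on the log2(TPM + 1) scale, 12 were higher in XY at E12.5, beside 14.2% of all genes. In XX from E13.5 to E15.5, 10 changed, of which 10 fell, beside 14.6% and 6.35% of all genes. With only the libraries compared, calls were 12 (5 and 7) at E11.5, 4 (3 and 1) between E11.5 and E12.5 in XX and 18 (4 and 14) in XY from E13.5 to E15.5. With E11.5 left out, the calls in XY from E13.5 to E15.5 were 14 (2 and 12), beside 33.3% of all genes. At that step 1 member rose in XX, beside 17.8% of all genes.

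Leaving out 1 library gave these ranges, for which the shares of all genes are not given here. XX E11.5 to E12.5: falls 1 to 4, rises 6 to 12. XY E11.5 to E12.5: falls 4 to 7, rises 11 to 16. XX E12.5 to E13.5: 7 to 13, falls 5 to 10, rises 1 to 3. XY E12.5 to E13.5: falls 10 to 12. XX E13.5 to E15.5: 9 to 17, falls 9 to 17, rises 0 to 1. XY E13.5 to E15.5: 5 to 7, rises 0 to 1. At E11.5, 6 to 10 were higher in XX. Uncalled differences that changed sign ranged as follows: at E11.5 Slc2a1 from -0.1286 to 0.0377, Pfkm from -0.0772 to 0.1489 and Pdk1 from -0.3114 to 0.0869; at E12.5 Pfkl from -0.0357 to 0.2529 and Slc16a3 from -0.1801 to 0.3163; at E15.5 Pdk4 from -0.1277 to 0.1135, Fbp1 from -0.4004 to 0.4826 and Pck2 from -0.0791 to 0.0492.

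Over all groups, deviations of same-numbered libraries correlated by -0.00781 on average (-0.355 to 0.408, 84 pairs), and 9 of 24 libraries correlated best with their own number. Only at E11.5 were all 3 same-numbered pairs of XX and XY libraries over 0.1, and at E12.5 they were at 0.218, 0.050 and 0.183. The block is shared by all groups and cannot test a pairing at either stage alone. With the replicate block, Ldha became called at E11.5 (23 members in place of 22) and no other E11.5 call of a member changed. At the other stages, Gpi1 (-0.26, adjusted p = 0.0359) and Pdk1 (0.34, adjusted p = 0.0434) became called at E13.5 (29 in place of 27) and Aldoa (-0.24, adjusted p = 0.0324) at E15.5 (28 in place of 27). The block called 25 members between E11.5 and E12.5 in XY (23 without), and no call of a sex difference was lost. For the counts with the block, the shares of all genes are not given here. With CPM in place of TPM, 133 of 208 family shares moved by more than 1 SD. With 1 library left out 0 of 624 did. Leaving out 1 of 3 values cannot move their mean by 1 SD of the same 3, so this count tests nothing. Genes at a few counts, such as Eno2, Fbp1 and Fbp2, are limited by depth.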

Other observations

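Eno1b, a near-identical copy of Eno1, took shares of the Eno1 counts that were tight within most groups and far apart in others. It had 44.5%, 16.6% and 16.6% of the Eno1 counts in the 3 XY E12.5 libraries and 33.1%, 60.3% and 17.1% in XX E11.5, against 40.9%, 40.7% and 40.7% in XY E13.5 and 20.3%, 21.2% and 20.8% in XX E13.5.

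Gm13394, the most counted copy of Gapdh, had 59.2%, 46.7% and 66.8% of the Gapdh counts in XY E11.5 and 11.1%, 33.7% and 49.6% in XX E11.5, against 22.2%, 24.7% and 22.5% in XY E15.5.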
